A study of Mus musculus with 12 samples.

Results

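*Cxcl1*, *Cxcl2*, *Cxcl3*, and *Cxcl5* encode the chemokines on the measured panel that are best known for drawing neutrophils through the receptor CXCR2. They were listed by gene name, with earlier results of these data known, and they are 4 of the 43 panel genes. A further 5 house-keeping genes set the scale. The panel genes were measured by NanoString nCounter, which counts fluorescent barcodes hybridized to each transcript without amplification. B16.F10 mouse melanoma cells, an established line, had been placed under the skin of female C57BL/6J mice that were 6 to 8 weeks old, and 12 of the resulting tumors were analyzed after they had reached about 200 mm3. No genetic change to the mice or to the tumor line is given. Every tumor received 1 intratumoral injection of 100 µL, and 100 ng of its RNA was analyzed 6 h later. In 4 tumors the injection was PBS, in 4 it was free D-PDB (i.e. the polymer carrier without DNA, at a dose that the labels call equivalent), and in 4 it was NanoISD (i.e. D-PDB loaded with 2 µg of phosphorothioate-capped double-stranded DNA). The tumors are transplants of a single cell line, and the panel holds no melanoma or neutrophil marker, so neither the tumor cell content nor the number of neutrophils could be checked.

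CXCR2 ligands are small secreted proteins that carry a glutamate-leucine-arginine (ELR) motif ahead of their CXC cysteines. They are released by stromal cells, endothelial cells, macrophages, and tumor cells after inflammatory stimulation, and the gradient they form on vessel walls and in tissue guides neutrophils out of the blood. *Cxcl1* (KC) and *Cxcl2* (MIP-2) are rapidly induced ligands, *Cxcl3* is their close relative, and *Cxcl5* (LIX) is known mainly from epithelial and stromal cells and from platelets. The DNA cargo of NanoISD is a ligand of cGAS, a cytosolic DNA sensor that signals through STING to the transcription factors IRF3 and NF-κB, and NF-κB is a known activator of CXCR2 ligand genes.

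In the RefSeq gene table of mouse assembly GRCm38.p6, the 4 genes lie in a chemokine cluster on chromosome 5. The protein-coding genes there follow one another in the order *Cxcl5*, *Ppbp*, *Pf4*, *Cxcl3*, *Cxcl15*, *Cxcl1*, and *Cxcl2*, and all 7 were on the panel. Promoter sequence was matched by symbol for 3 of the 4 members, *Cxcl1*, *Cxcl2*, and *Cxcl3*. The 120 bases before each RefSeq start site are shown because 2 short motifs occur in all 3, although *Cxcl1* and *Cxcl2* passed the test for NanoISD against PBS and *Cxcl3* did not. The windows lie on the plus strand of GRCm38.p6 at chr5:90785981-90786100 for *Cxcl3*, chr5:90891125-90891244 for *Cxcl1*, and chr5:90903779-90903898 for *Cxcl2*. Capitals mark GGAATTTCC, a sequence of the κB type bound by NF-κB proteins, and ATAAAAGG, a TATA-like sequence.
Cxcl3: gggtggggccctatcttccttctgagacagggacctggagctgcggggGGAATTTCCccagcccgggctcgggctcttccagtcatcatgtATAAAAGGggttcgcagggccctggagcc
Cxcl1: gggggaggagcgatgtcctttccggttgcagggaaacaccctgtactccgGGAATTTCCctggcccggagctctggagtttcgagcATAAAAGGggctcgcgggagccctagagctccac
Cxcl2: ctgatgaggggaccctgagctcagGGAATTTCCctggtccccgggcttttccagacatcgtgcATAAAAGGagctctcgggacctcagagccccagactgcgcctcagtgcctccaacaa

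Both motifs were picked after reading these sequences and were then searched on both strands of every RefSeq promoter window, from 250 bases before to 50 bases after the start. GGAATTTCC occurred in 104 of 32851 windows, or 0.317%. Among the 32 panel genes with a window, 5 carried it (*Cxcl1*, *Cxcl2*, *Cxcl3*, *Cxcl10*, and *Ifnb1*). ATAAAAGG occurred in 577 windows, or 1.76%, and in 7 of the 32 panel genes. The κB-type sequence lay 72 to 64 bases before the start in *Cxcl3*, 70 to 62 in *Cxcl1*, and 96 to 88 in *Cxcl2*. The motifs do not overlap each other. A match describes the letters of a window and does not show that a protein binds there.

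The values deposited by the authors are log2 fold changes of single tumors, scaled to the house-keeping genes and set to a mean of 0 over the 4 PBS-treated tumors. A value of 1 is therefore a doubling over that gene's own PBS mean, and levels of different genes cannot be ranked on this scale. No member had a lowest value shared by several tumors. The counts were not analysed here and the depth is unknown, so precision rests on the 4 tumors per group. The mean of the 39 other panel genes ranged from -0.12 to 0.12 after PBS, from -0.21 to 0.72 after D-PDB, and from 0.42 to 2.20 after NanoISD, with tumor 4 the highest of the D-PDB group and tumor 1 the highest of the NanoISD group.

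*Cxcl5* carried the largest changes. Its values after PBS were 2.34, -1.45, -0.44, and -0.44 in tumors 1, 2, 3, and 4. After D-PDB they were 1.91, 2.25, 2.09, and 4.72, and after NanoISD they were 8.08, 4.41, 5.39, and 4.02. The NanoISD-treated tumors all lay above the PBS-treated tumors, whereas D-PDB tumor 4 lay among the NanoISD-treated tumors and PBS tumor 1 lay above 3 of the D-PDB-treated tumors. The means were 0 ± 1.63, 2.74 ± 1.33, and 5.48 ± 1.83 (SD, n = 4 each) after PBS, D-PDB, and NanoISD.

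*Cxcl2* rose less. It measured 1.55, 0.43, -1.34, and -0.64 after PBS, then -0.18, 0.06, 0.70, and 2.24 after D-PDB, and 4.01, 2.46, 2.10, and 1.91 after NanoISD. All NanoISD-treated tumors again lay above all PBS-treated tumors, and D-PDB tumor 4 lay above 2 of the NanoISD-treated tumors. Its means were 0 ± 1.26, 0.71 ± 1.09, and 2.62 ± 0.95 (SD, n = 4 each).

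*Cxcl1* was the steadiest member in the absence of polymer. It measured 0.05, 0.29, 0.06, and -0.39 after PBS, then -0.22, -0.04, 0.17, and 1.17 after D-PDB, and 4.80, 1.07, 2.42, and 0.92 after NanoISD. The lowest NanoISD-treated tumor was above the highest PBS-treated tumor, and 2 of the NanoISD-treated tumors lay below D-PDB tumor 4. The means were 0 ± 0.28, 0.27 ± 0.62, and 2.30 ± 1.80 (SD, n = 4 each).

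*Cxcl3* showed no separation of the groups. It measured 1.06, -0.21, -0.39, and -0.46 after PBS, then -1.62, -0.51, 0.29, and 0.85 after D-PDB, and 2.64, 0.90, -0.18, and -0.40 after NanoISD. NanoISD tumor 1 was the only tumor of its group above all PBS-treated tumors. The means were 0 ± 0.71, -0.25 ± 1.07, and 0.74 ± 1.39 (SD, n = 4 each).

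**Figure D1:**
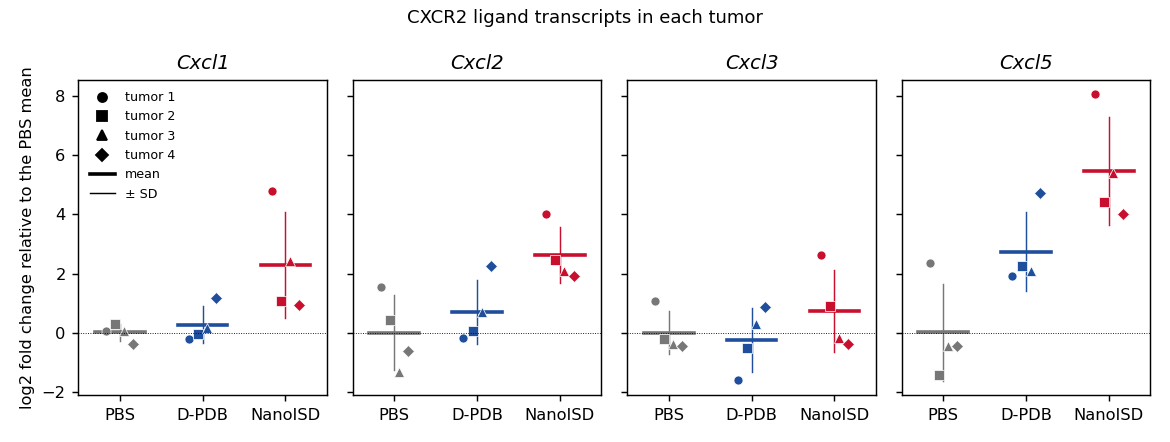
Each panel plots 1 member, with the treatment on the x axis and the log2 fold change relative to the PBS mean on the y axis. Points are single tumors (shape gives the tumor number), thick bars are group means, and thin lines are ± SD. *Cxcl5* reaches 8.08 in NanoISD tumor 1 and lies above 1.9 in every D-PDB-treated tumor, while the *Cxcl3* groups overlap.

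NanoISD treatment raised *Cxcl5*, *Cxcl2*, and *Cxcl1* over PBS treatment, and *Cxcl3* did not pass the test. *Cxcl5* was higher by 5.47 on the log2 scale (SE 0.98, 95% interval 3.37 to 7.58; adjusted p = 0.00117, limma), a 44.4-fold change with an interval of 10.3 to 191, and had the largest difference of the 43 genes. *Cxcl2* was higher by 2.62 (SE 0.70, interval 1.11 to 4.13; adjusted p = 0.0115), or 6.15-fold, the fifth in size. *Cxcl1* was higher by 2.30 (SE 0.70, interval 0.79 to 3.81; adjusted p = 0.0169), or 4.92-fold, the seventh in size. The difference for *Cxcl3* was 0.74 (SE 0.69, interval -0.75 to 2.23; adjusted p = 0.361), an interval that runs from a fall to a rise of over 2 log2 units.

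Thus 3 of 4 members rose, and in the same 3 the NanoISD-treated tumors did not overlap with the PBS-treated tumors. Over the panel, 51.2% of genes rose and 41.9% showed no overlap, so a rise was common among all genes measured. The median difference of the members was 2.46 and that of the panel was 1.20. For each of the 3 genes the exact two-sided permutation test gave p = 0.0286, which is the smallest value that 4 tumors against 4 allow. NanoISD tumor 1 was the highest tumor for every member, and without it the *Cxcl1* difference was 1.47 and the *Cxcl3* difference 0.11, with the same 3 members past the threshold. In bulk tumors a change in the number of cells of a type and a change in RNA per cell cannot be told apart.

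The comparison of NanoISD with D-PDB addresses what the DNA added to the polymer. *Cxcl1* was higher after NanoISD than after D-PDB by 2.03 (SE 0.70, interval 0.53 to 3.54; adjusted p = 0.0470, limma). The differences of the other members were 1.92 for *Cxcl2* (interval 0.41 to 3.42; adjusted p = 0.0516), 2.73 for *Cxcl5* (interval 0.63 to 4.84; adjusted p = 0.0516), and 0.99 for *Cxcl3* (interval -0.50 to 2.47; adjusted p = 0.251). Hence 1 of 4 members passed the threshold, beside 25.6% of the panel, and no member was free of overlap, beside 18.6% of the panel. The members' median was 1.97 and the panel's 1.01.

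These adjusted values lay close to the threshold, and *Cxcl1* missed it in 16 of 24 alternatives, among them the replicate block (adjusted p = 0.0619, limma), robust eBayes (adjusted p = 0.0513), and the exact permutation test (p = 0.0857). Without D-PDB tumor 4, the differences were 2.43 for *Cxcl2* and 3.39 for *Cxcl5* (adjusted p = 0.0187 for both, limma), and 3 members passed. Without NanoISD tumor 1, the *Cxcl1* difference was 1.20 (adjusted p = 0.0806, limma) and no member passed. With both of these tumors left out, an alternative chosen after seeing the data, 3 members passed.

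D-PDB alone raised none of the members past the threshold, and 0% of the panel passed. *Cxcl5* had the largest difference of the 43 genes, 2.74 on the log2 scale (SE 0.98, interval 0.63 to 4.85), or 6.68-fold, with an adjusted p of 0.630 by limma. It was the 1 gene of the panel with an unadjusted p under 0.05. The exact permutation test gave p = 0.114, since PBS tumor 1, at 2.34, lay above 3 of the D-PDB-treated tumors. Without PBS tumor 1 the difference was 3.52 (adjusted p = 0.0977, limma), and without D-PDB tumor 4 it was 2.08. The differences of *Cxcl1* (0.27, interval -1.24 to 1.77), *Cxcl2* (0.71, interval -0.80 to 2.21), and *Cxcl3* (-0.25, interval -1.73 to 1.24) had adjusted p of 0.831 to 0.866. No member was free of overlap in this comparison, nor was any other gene in the upward direction (0% of the panel).

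**Figure D2:**
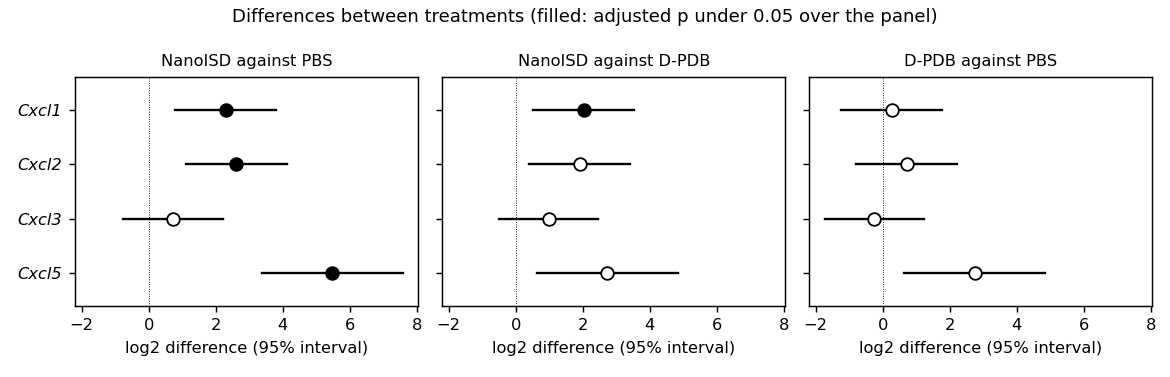
For each member (rows), the x axis gives the log2 difference between 2 treatments with its 95% interval, in 1 panel per comparison. Filled points passed an adjusted p of 0.05 over the 43 genes: *Cxcl1*, *Cxcl2*, and *Cxcl5* for NanoISD against PBS and *Cxcl1* for NanoISD against D-PDB. The *Cxcl5* points are 5.47, 2.73, and 2.74.

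For *Cxcl5* the step from PBS to D-PDB (2.74) and the step from D-PDB to NanoISD (2.73) were of like size. The difference between both steps was -0.01 (SE 1.69, interval -3.65 to 3.64; adjusted p = 0.997, limma), an interval too wide to show that they are equal. For *Cxcl1* the second step exceeded the first by 1.77 (interval -0.84 to 4.37; adjusted p = 0.481), and the panel median was 0.91. No gene of the panel passed this test (0% of 43, with 6 genes at an unadjusted p under 0.05 by limma). This contrast sets the 2 steps of a gene against each other and does not compare *Cxcl5* with the other members.

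The members were also compared with each other within each tumor. The difference of 2 genes of the same tumor does not depend on how that tumor was scaled to its house-keeping genes. All 6 pairs were examined in each comparison by the exact two-sided permutation test, with adjustment over the 6 pairs. The smallest p that this exact test allows is 0.0286. The adjusted value of a pair at that limit therefore depends on how many of the 6 pairs reach it. *Cxcl5* minus *Cxcl3* ranged from -1.24 to 1.28 after PBS, from 1.80 to 3.87 after D-PDB, and from 3.51 to 5.57 after NanoISD, so that neither treated group overlapped with PBS. After NanoISD, *Cxcl5* had risen over PBS by 4.73 more than *Cxcl3*, by 3.17 more than *Cxcl1*, and by 2.85 more than *Cxcl2* (exact permutation p = 0.0286, adjusted p = 0.0429 for each).

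*Cxcl3* also fell behind *Cxcl2*, its near relative. *Cxcl3* minus *Cxcl2* was -0.64 to 0.95 after PBS and -2.31 to -1.37 after NanoISD, a difference of -1.88 (exact permutation p = 0.0286, adjusted p = 0.0429). The difference for *Cxcl3* minus *Cxcl1* was -1.56 (exact permutation p = 0.0857, adjusted p = 0.103). *Cxcl2* and *Cxcl1* differed by 0.32 (95% interval -1.21 to 1.85; exact permutation p = 0.686, adjusted p = 0.686), an interval that allows a difference of over 1 log2 unit in either direction. With 1 NanoISD-treated tumor left out, the pairs that lost their call had adjusted p-values of 0.0571 to 0.0857 (exact permutation test), and kept their direction. All 4 pairs lost it without NanoISD tumor 1, 3, or 4, and *Cxcl5* minus *Cxcl1* also without tumor 2. Because the adjustment is shared, a pair can lose its call when only another pair has moved. The probe sequences are not given in the sources used here, and cross-hybridization among these related transcripts was not tested.

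After D-PDB no pair passed the adjusted threshold. The difference from PBS was 2.99 for *Cxcl5* minus *Cxcl3* and 2.04 for *Cxcl5* minus *Cxcl2* (exact permutation p = 0.0286, adjusted p = 0.0857 for each), with no overlap of the D-PDB-treated and PBS-treated tumors in either pair. For *Cxcl5* minus *Cxcl1* it was 2.47 (exact permutation p = 0.114, adjusted p = 0.214), with D-PDB values of 1.92 to 3.55 and PBS values of -1.74 to 2.29. By least squares on all 12 tumors, these pairs had adjusted p-values of 0.0112, 0.0336, and 0.0286 in the order given. Between NanoISD and D-PDB no pair passed (adjusted p from 0.257 to 0.829; exact permutation test). *Cxcl5* minus *Cxcl1* after NanoISD was 2.97 to 3.34, an SD of 0.17, although *Cxcl1* itself spanned 0.92 to 4.80 in these 4 tumors.

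**Figure D3:**
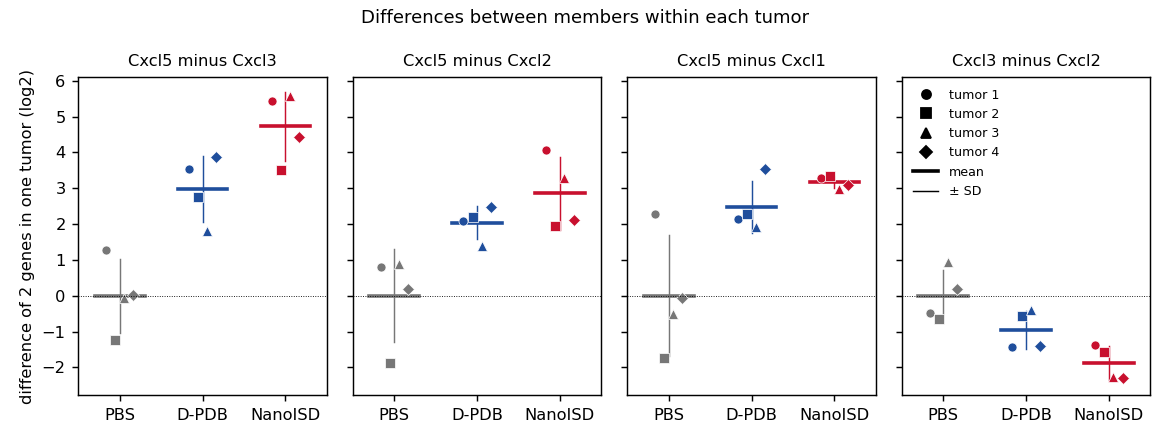
The y axis gives the log2 difference between 2 members in the same tumor, by treatment on the x axis, for the 4 pairs that differed between NanoISD and PBS. Points are tumors, thick bars are means, and thin lines are ± SD. *Cxcl5* minus *Cxcl3* moves from -1.24 to 1.28 after PBS to 3.51 to 5.57 after NanoISD, and *Cxcl3* minus *Cxcl2* falls to between -2.31 and -1.37.

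Within single tumors, *Cxcl5* had the highest value of the 4 members in all 8 tumors that received polymer. The orders given here are of fold changes over each gene's own PBS mean and do not rank transcript levels. *Cxcl3* was the lowest of the members in all 4 NanoISD-treated tumors and in 3 of the 4 D-PDB-treated tumors. In the PBS group no order recurred, and *Cxcl5* was the highest of the 43 genes in tumor 1 and the lowest in tumor 2. The members differed in their spread there. *Cxcl5* had the largest SD of the 43 genes after PBS (1.63), *Cxcl2* the third (1.26), *Cxcl3* the sixth (0.71), and *Cxcl1* the 25th (0.28), beside a panel median of 0.33. After NanoISD the SDs were 1.83 for *Cxcl5*, 1.80 for *Cxcl1*, 1.39 for *Cxcl3*, and 0.95 for *Cxcl2*, beside a panel median of 0.95.

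The members also varied together among tumors of the same treatment, although *Cxcl1* did so about as closely with the panel at large. Deviations from the group mean were correlated over the 12 tumors for all 6 pairs, with p from all 13824 permutations within groups and adjustment over the 6 pairs. *Cxcl2* and *Cxcl3* had the highest Pearson r, 0.86 (p = 0.000217, adjusted p = 0.00130), and a Spearman rho of 0.84 (p = 0.000796, adjusted p = 0.00477). Without the 2 tumors farthest from the median of *Cxcl2*, PBS tumor 1 and D-PDB tumor 4, r was 0.82.

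The other 5 pairs had r from 0.63 to 0.81, with permutation p-values of 0.00680 to 0.0404 and adjusted p-values of 0.0198 to 0.0404. Their rho was 0.48 to 0.66, with permutation p-values of 0.0490 to 0.134 and an adjusted p of 0.134 for each. Without the 2 farthest tumors, r was 0.36 for *Cxcl1* with *Cxcl3* and 0.50 to 0.60 for the others. The tumors left out came from NanoISD tumors 1 and 4, PBS tumor 1, and D-PDB tumor 4. The members' deviations also followed those of the mean of the 39 other panel genes, with r of 0.86 for *Cxcl1*, 0.72 for *Cxcl5*, 0.54 for *Cxcl2*, and 0.47 for *Cxcl3* over the same 12 tumors, which share the scaling of each tumor. The part of this common movement in the correlations of the members was not tested.

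**Figure D4:**
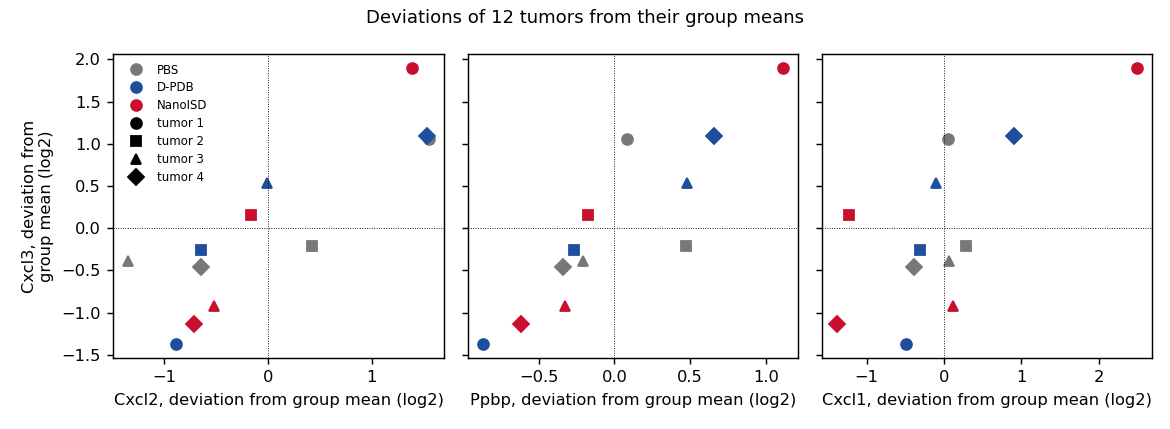
Each point is 1 of the 12 tumors, plotted as its deviation from its group mean on the log2 scale, with *Cxcl3* on the y axis and *Cxcl2*, *Ppbp*, or *Cxcl1* on the x axes. Color gives the treatment and shape the tumor number. The *Cxcl2* panel (r = 0.86) shows a spread along the diagonal, and the *Cxcl1* panel (r = 0.72) falls to an r of 0.36 without NanoISD tumors 1 and 4.

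By the same measure, the panel genes with the most similar deviations differed between members. For *Cxcl1* they were *Ccl2* (r = 0.91), *Ccl22* (0.90), and *Kitl* (0.90), which encode a monocyte attractant, a ligand of CCR4, and stem cell factor. For *Cxcl5* they were *Ccl9* (0.90), *Ccl22* (0.90), and *Pf4* (0.85). For *Cxcl2* they were *Cxcl3* (0.86), *Cxcl5* (0.80), and *Pf4* (0.79), and for *Cxcl3* they were *Ppbp* (0.89), *Cxcl2* (0.86), and *Pf4* (0.85). *Cxcl2* and *Cxcl3* thus had their closest matches within the chromosome 5 cluster. The median r with all 42 other genes was 0.70 for *Cxcl1*, 0.56 for *Cxcl5*, 0.48 for *Cxcl2*, and 0.41 for *Cxcl3*. Among the 42 genes, the other members ranked 18th (*Cxcl5*, 0.75), 20th (*Cxcl3*, 0.72), and 25th (*Cxcl2*, 0.63) in likeness to *Cxcl1*. These likenesses are descriptions over 12 tumors without a test.

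The remaining genes of the cluster did not pass the test for NanoISD against PBS. *Ppbp*, which encodes the platelet CXCR2 ligand CXCL7, measured 0.08, 0.47, -0.21, and -0.34 after PBS, -1.19, -0.59, 0.16, and 0.34 after D-PDB, and 1.08, -0.21, -0.36, and -0.65 after NanoISD. Its difference between NanoISD and PBS was -0.04 (adjusted p = 0.939, limma). *Pf4*, which encodes platelet factor 4 and lacks the ELR motif, measured 3.02, 0.62, 0.31, and 0.12 after NanoISD and -0.45 to 0.47 after PBS, a difference of 1.02 (adjusted p = 0.155, limma). NanoISD tumor 1 was the highest tumor for both genes.

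*Cxcl15* (lungkine), an ELR chemokine known from lung epithelium, measured 0.94, 0.21, 1.33, and 0.81 after NanoISD and -0.35 to 0.15 after PBS. These groups did not overlap, and the difference of 0.82 had an adjusted p of 0.0765 by limma. Along the cluster, then, the differences between NanoISD and PBS were 5.47 for *Cxcl5*, -0.04 for *Ppbp*, 1.02 for *Pf4*, 0.74 for *Cxcl3*, 0.82 for *Cxcl15*, 2.30 for *Cxcl1*, and 2.62 for *Cxcl2*. The genes that passed the test stood at both ends of the cluster, and differences between members and the genes beside them were not tested.

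**Figure D5:**
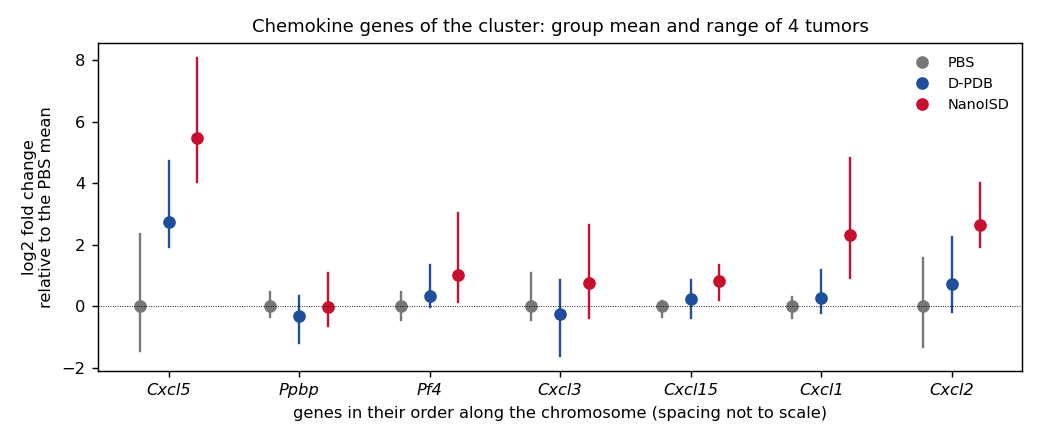
The x axis gives the 7 chemokine genes in their order on chromosome 5 (spacing not to scale) and the y axis the log2 fold change relative to the PBS mean. Points are group means and lines run from the lowest to the highest of 4 tumors. The NanoISD means are 5.48 for *Cxcl5* at one end and 2.30 and 2.62 for *Cxcl1* and *Cxcl2* at the other, and between -0.04 and 1.02 for the 4 genes between them.

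*Pf4* and *Ppbp* are also the platelet genes of the panel, and neither passed the test in any comparison. Their mean per tumor was -0.33 to 0.28 after PBS, -0.60 to 0.84 after D-PDB, and -0.27 to 2.05 after NanoISD, with the highest values in D-PDB tumor 4 and NanoISD tumor 1. The same tumors were the highest of their groups for all 4 members. The part of platelet or blood content in these values was not tested. The mean of 4 genes of T and NK cells (*Fasl*, *Xcl1*, *Il2*, and *Lta*) was -0.19 to 0.23 after PBS, -0.46 to 0.13 after D-PDB, and 0.02 to 0.87 after NanoISD, again with NanoISD tumor 1 highest. The 4 genes did not move alike. For NanoISD against PBS only *Fasl* passed (difference 1.19, adjusted p = 0.0224, limma), beside 51.2% of the panel. The differences were 0.31 for *Xcl1*, 0.12 for *Lta*, and -0.18 for *Il2*.

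Among cytokines that act on granulocytes or accompany inflammation, 2 of 4 rose after NanoISD over PBS, beside 51.2% of the panel. These were *Csf3*, which encodes the neutrophil growth factor G-CSF (difference 1.90, adjusted p = 0.00476, limma), and *Il6* (3.68, adjusted p = 0.000448). *Csf2*, which encodes GM-CSF, differed by 1.20 (adjusted p = 0.0607, limma) and *Tnfa* by 0.54 (adjusted p = 0.188). Against D-PDB 3 of 4 rose (*Csf3*, *Il6*, and *Tnfa*), beside 25.6% of the panel, and none of the 4 passed for D-PDB against PBS. *Csf3* had the same lowest value, -0.07, in PBS tumors 1, 3, and 4 and in D-PDB tumors 1 and 2. Whether these values lay at the background threshold was not tested, so the size of the *Csf3* differences is uncertain.

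Of the 11 other CXC chemokines on the panel, 4 rose after NanoISD over PBS (*Cxcl10*, *Cxcl11*, *Cxcl12*, and *Cxcl13*), with a median of 1.02 over the 11. Of 12 CC chemokines 9 rose, with a median of 1.95, and both counts stand beside 51.2% of the panel. Against D-PDB, 2 of the other CXC chemokines and 2 of the CC chemokines rose, beside 25.6% of the panel, with medians of 0.61 and 1.32. After D-PDB alone no gene of either list passed the test, with medians of 0.33 and 0.25 over PBS, beside 2.74 for *Cxcl5* and 0.49 for the median of the 4 CXCR2 ligands.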

How the data were processed

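RNA from 12 tumors, 4 per treatment, was measured on the nCounter platform, and the authors deposited log2 fold changes with 2 decimals, made in nSolver from barcode counts relative to house-keeping genes and PBS-treated tumors. The nSolver version and background threshold are not given in the sources used here. Treatments and tumor numbers came from the labels, and tumors of 1 treatment were taken as replicates, so p-values measure only the spread between these samples. The values were used without further scaling. limma 3.58.1 (R 4.3.3; lmFit and eBayes on all 12 tumors and 43 panel genes, house-keeping genes left out) gave differences and p-values with Benjamini-Hochberg adjustment over the 43 genes at a threshold of 0.05. The fit was tested on simulated data with genes drawn independently, so calls among genes that vary together were not tested by it. The methods' one-way analysis was not used because it gives no value for a single gene. Exact permutation tests used all 70 assignments of 8 tumors. Other steps ran in Python 3.11.15 (pandas 2.3.3, numpy 2.4.6, scipy 1.17.1), with plots by matplotlib 3.10.9. Gene names were matched to RefSeq (47 by symbol, *Tnfa* as a synonym). The named genes were the 4 members, *Ppbp*, *Cxcl15*, *Pf4*, 4 cytokines, and the 3 genes most like each member. Other panel genes are named as members of a list that passed the test, as T and NK cell genes, or as carriers of a motif. Members and lists were chosen with earlier results of these data known. Alternatives were other house-keeping sets, each tumor left out, only the groups compared, the replicate number as a block, array weights, robust eBayes, all 48 genes, and exact tests. Exact tests of single genes were judged without adjustment over the panel.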

Additional observations from a re-analysis of the deposited data

Results flagged for a closer look

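In 2 of the 30 groups of 4 tumors examined, 1 tumor stood apart from the others by Dixon's criterion for 4 samples, which chance alone meets in about 1 in 20 groups. *Cxcl3* was 1.06 in PBS tumor 1, beside -0.46 to -0.21 in the other PBS-treated tumors, a gap of 0.836 of the group's range. *Cxcl5* was 4.72 in D-PDB tumor 4, beside 1.91 to 2.25 in the other D-PDB-treated tumors, a gap of 0.879 of the range.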

How the results depend on the processing

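The rise of *Cxcl1*, *Cxcl2*, and *Cxcl5* after NanoISD over PBS kept its direction and its side of the threshold in all 24 alternatives. Over single left-out tumors the differences ranged from 1.47 to 2.76, 2.16 to 3.14, and 4.60 to 6.25, in that order. *Cxcl3* stayed short of the threshold (0.11 to 1.12). The exact permutation test was judged here by its unadjusted p, 0.0286 for each gene that rose. No value adjusted over the panel was computed for that test. The panel count of 22 became 16 to 26 without single tumors. For NanoISD against D-PDB, *Cxcl1* missed the threshold in 16 of 24 alternatives. These were the house-keeping scale without *Gapdh* (1.99), array weights (1.33), only the groups compared, robust eBayes, 48 genes, the replicate block, and the exact permutation test (2.03 in each), and 9 of 12 single left-out tumors (1.20 to 2.03, of a range of 1.20 to 2.49 over all 12). *Cxcl2* and *Cxcl5* passed with the scale without *Hdac3* (1.92 and 2.74) or *Rpl19* (1.96 and 2.78), without NanoISD tumor 1 and D-PDB tumor 4 together (1.96 and 2.52), and without some single tumors (1.92 to 2.43 and 2.73 to 3.39, of ranges over all 12 of 1.45 to 2.43 and 1.86 to 3.39). The number of members past the threshold was 0 without *Gapdh*, with only the groups compared, array weights, robust eBayes, or 48 genes, was 3 without *Hdac3*, *Rpl19*, or both tumors, and was 0 to 3 without single tumors. The panel count of 11 became 2 with only the groups compared and 5 to 20 without single tumors. It was 8 without *Gapdh*, 15 without *Hdac3* or *Rpl19*, and 14 without both tumors. With array weights it was 10, and with robust eBayes or 48 genes it was 9.

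The deviations of same-numbered tumors had r from -0.52 to 0.47, and those of differently numbered tumors had r from -0.57 to 0.70. With 4 tumors per group these values cannot exclude a pairing by number. With the replicate block, *Cxcl1* for NanoISD against D-PDB was 2.03 (adjusted p = 0.0619, limma) and 0 members passed, and no other call of a member changed.

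For D-PDB against PBS, small differences turned sign: *Cxcl1* to -0.03 without D-PDB tumor 4 and without both tumors (range -0.03 to 0.43), and *Cxcl3* to 0.11 without PBS tumor 1 and 0.21 without D-PDB tumor 1 (range -0.61 to 0.21). The *Cxcl5* difference of steps became 0.00 on the scale without *Gusb*, 0.04 without *Rpl19*, and 0.44 without both tumors (range -0.88 to 1.31). The panel count for this contrast was 3 without NanoISD tumor 2 and 2 with array weights. *Cxcl2* minus *Cxcl1* also turned, with ranges of -0.15 to 0.82 (NanoISD against PBS), -0.48 to 0.25 (NanoISD against D-PDB), and -0.03 to 0.94 (D-PDB against PBS). The causes were not tested. The 4 tumors per group limit all of these values, and no depth was known.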
